A study of Mus musculus with 60 samples.

Results

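The 43 genes described here encode enzymes that feed acetyl-CoA into the tricarboxylic acid (TCA) cycle and turn the cycle over. They cover the cycle itself, the pyruvate dehydrogenase complex with its kinases and phosphatases, the uptake and carboxylation of pyruvate, the breakdown of branched-chain amino acids (BCAA), the use of ketone bodies, and the aspartate aminotransferases. They were chosen by gene symbol, and each symbol matched 1 of the 53700 gene rows of the count table. All 43 passed the filter on low counts, which left 18119 genes for testing. The least counted members were Pdk3 (median of 152 raw counts per heart, lowest 1), Pdpr (lowest 15) and Pdp1 (lowest 30).

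RNA was sequenced from biventricular samples of dnOGAh mice and littermate CON mice, with 1 library per heart and 5 hearts per genotype at each of ZT4, ZT8, ZT12, ZT16, ZT20 and ZT24 (60 libraries, zeitgeber time in hours). All mice were male and on the C57BL/6 background. The dnOGAh mice carried αMHC-rtTA, a doxycycline-dependent activator made in cardiomyocytes, together with TRE-EGFP-dnOGA, which encodes a rat splice variant of O-GlcNAcase that acts as a dominant negative and raises protein O-GlcNAcylation. The CON mice carried αMHC-rtTA alone. Both genotypes received doxycycline (DOX) from 10 weeks of age, as 1 injection of 100 µg followed by a diet with 1 g/kg, and hearts were taken after 2 weeks, at 12 weeks of age. The transgene is driven in cardiomyocytes only, whereas the RNA came from every cell type of the ventricles, so that fewer cells of a type and less RNA per cell cannot be told apart.

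The heart draws most of its ATP from the oxidation of fuels in mitochondria, and fatty acids, glucose, ketone bodies and amino acids all meet at acetyl-CoA and the TCA cycle. Entry from glucose is gated by the pyruvate dehydrogenase complex, which pyruvate dehydrogenase kinases switch off by phosphorylation and pyruvate dehydrogenase phosphatases switch back on. BCAA oxidation is gated in the same manner, by a kinase and a phosphatase that act on the branched-chain ketoacid dehydrogenase complex.

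Counts on genes ranged from 9162859 to 82938039 per CON library and from 14540266 to 54766622 per dnOGAh library. Levels are given as CPM, counts per 1000000 counts on genes, after TMM scaling. Oga, to which reads of the rat transgene can be assigned, lay between 46.7 and 72.1 CPM in CON hearts and between 182 and 836 CPM in 29 of the 30 dnOGAh hearts; the library labelled dnOGAh ZT12 replicate 3 had 70.0 CPM. In CON ZT4 replicate 4 and dnOGAh ZT4 replicate 4, transcripts of the mitochondrial genome took 77.6% and 66.0% of the counts, against medians of 30.7% in CON and 17.2% in dnOGAh hearts. The counts for the genotype effect averaged over times and for the Oga slope are given with and without these 3 libraries. So are the ranges of the members with the largest differences. Counts at single times, for time of day and for ratio pairs are not given without them. Of the cell type markers, 12 of 12 cardiomyocyte genes were lower in dnOGAh hearts (median log2 fold change -1.05), 7 of 7 fibroblast genes (1.62) and 5 of 5 macrophage genes (2.74) were higher, 4 of 5 lymphocyte genes were higher, and 6 of 6 endothelial genes were lower (-0.76). Sums of markers, unlike the other levels, are CPM without TMM scaling. Summed fibroblast markers took 391 to 1264 CPM in CON and 1129 to 12785 CPM in dnOGAh hearts, and summed macrophage markers 49.9 to 268 CPM and 139 to 3307 CPM. Without the 3 libraries the ranges were separate, at 820 to 1264 CPM and 4807 to 12785 CPM for fibroblast markers and at 142 to 268 CPM and 712 to 3307 CPM for macrophage markers, and dnOGAh ZT12 replicate 3 had 1266 CPM and 329 CPM. Their part in the differences below was not tested.

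Most of these transcripts were less abundant in dnOGAh than in CON hearts. Averaged over the 6 times, 39 of the 43 members fell (against 31.9% of all genes tested), 1 rose (Pdk3; against 38.8% of all genes), and Pdk4, Pdp1 and Bdh1 did not pass the test. The median log2 fold change (dnOGAh over CON) was -0.98 over the members, or 50.6% of the CON level, and 0.06 over all genes. These directions are relative to the whole library: when libraries were scaled to the 12 cardiomyocyte markers instead, 12 members were lower (3.63% of all genes) and 15 higher (86.3% of all genes), as described further on. The tests are edgeR's quasi-likelihood test over the 12 groups, with Benjamini-Hochberg adjustment over all 18119 genes and a threshold of 0.05. Without the 3 libraries named above, 39 members fell (33.3% of all genes) and 1 rose (40.7%), and the median was -1.03.

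**Figure D1:**
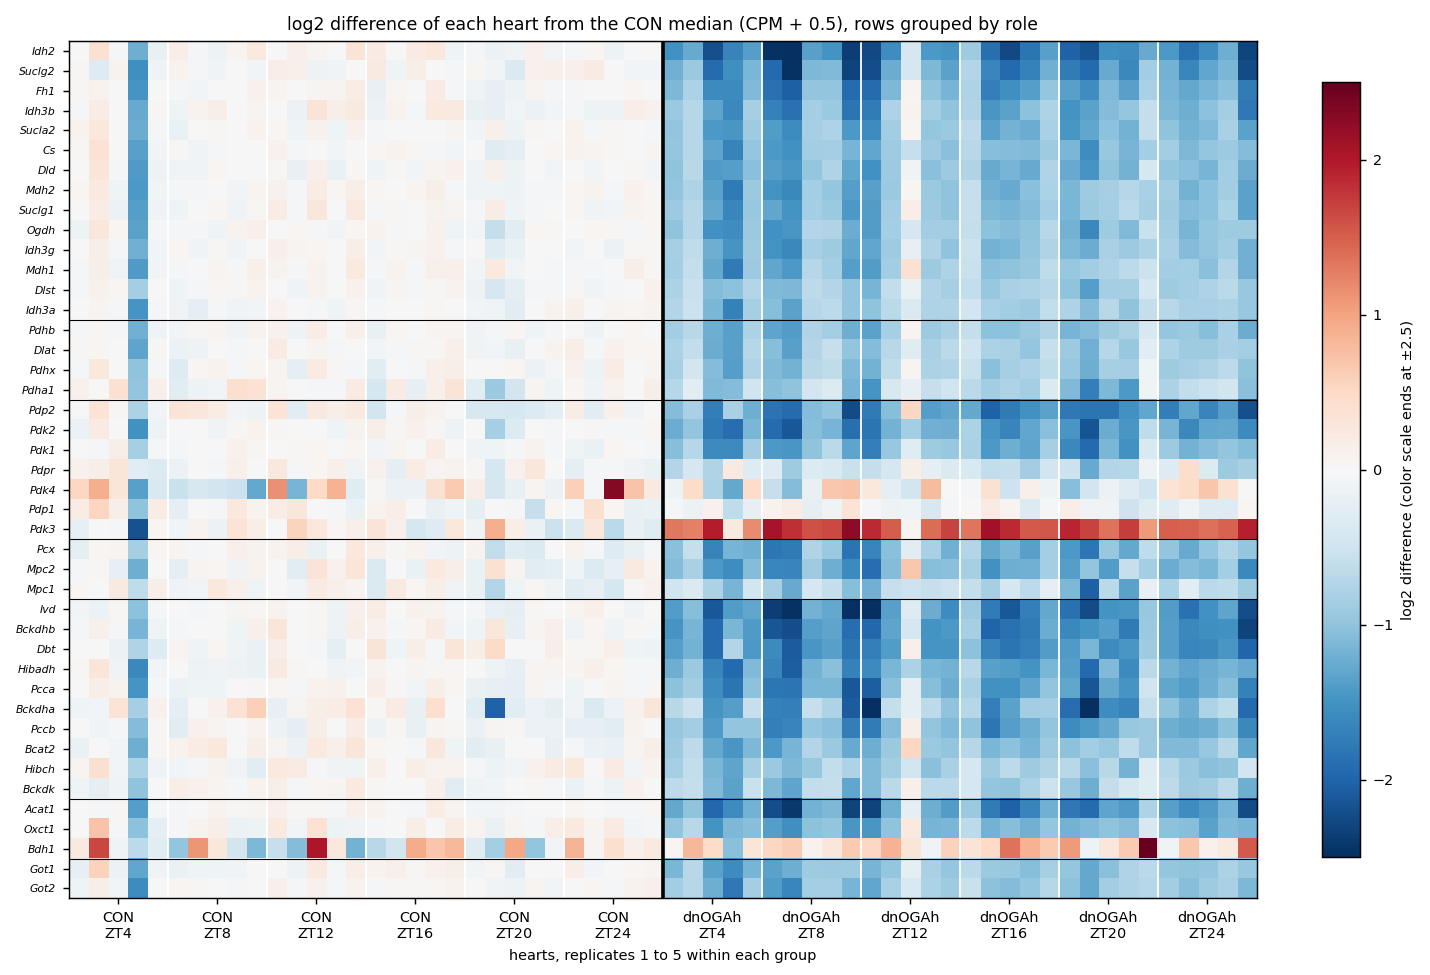
Level of each member (rows, grouped by role) in each of the 60 hearts (columns, by genotype and time), as the log2 difference from the member's CON median in TMM-scaled CPM. Most rows are below 0 across the dnOGAh hearts, Pdk3 is above 0, and CON ZT4 replicate 4 and dnOGAh ZT12 replicate 3 stand apart from their groups.

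In single hearts, the median member lay from -0.13 to 0.15 of its CON median (log2) in 29 CON hearts and at -1.23 in CON ZT4 replicate 4. Among dnOGAh hearts it lay from -1.51 to -0.60 in 29 hearts and at -0.20 in ZT12 replicate 3, the heart with Oga in the CON range. In that heart 25 of the 43 members were below their CON median, against 39 to 42 in dnOGAh hearts other than the 3 libraries set aside. CON ZT4 replicate 4 held the lowest CON value for 39 members, and dnOGAh ZT12 replicate 3 the highest dnOGAh value for 32. With all 60 hearts, no member had ranges that were separate between the genotypes (1.06% of all genes had), and without the 3 libraries 32 of the 43 members had (11.2% of all genes). Members also varied more among dnOGAh hearts, with a median coefficient of variation of 28.1% against 13.9% in CON hearts.

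**Figure D2:**
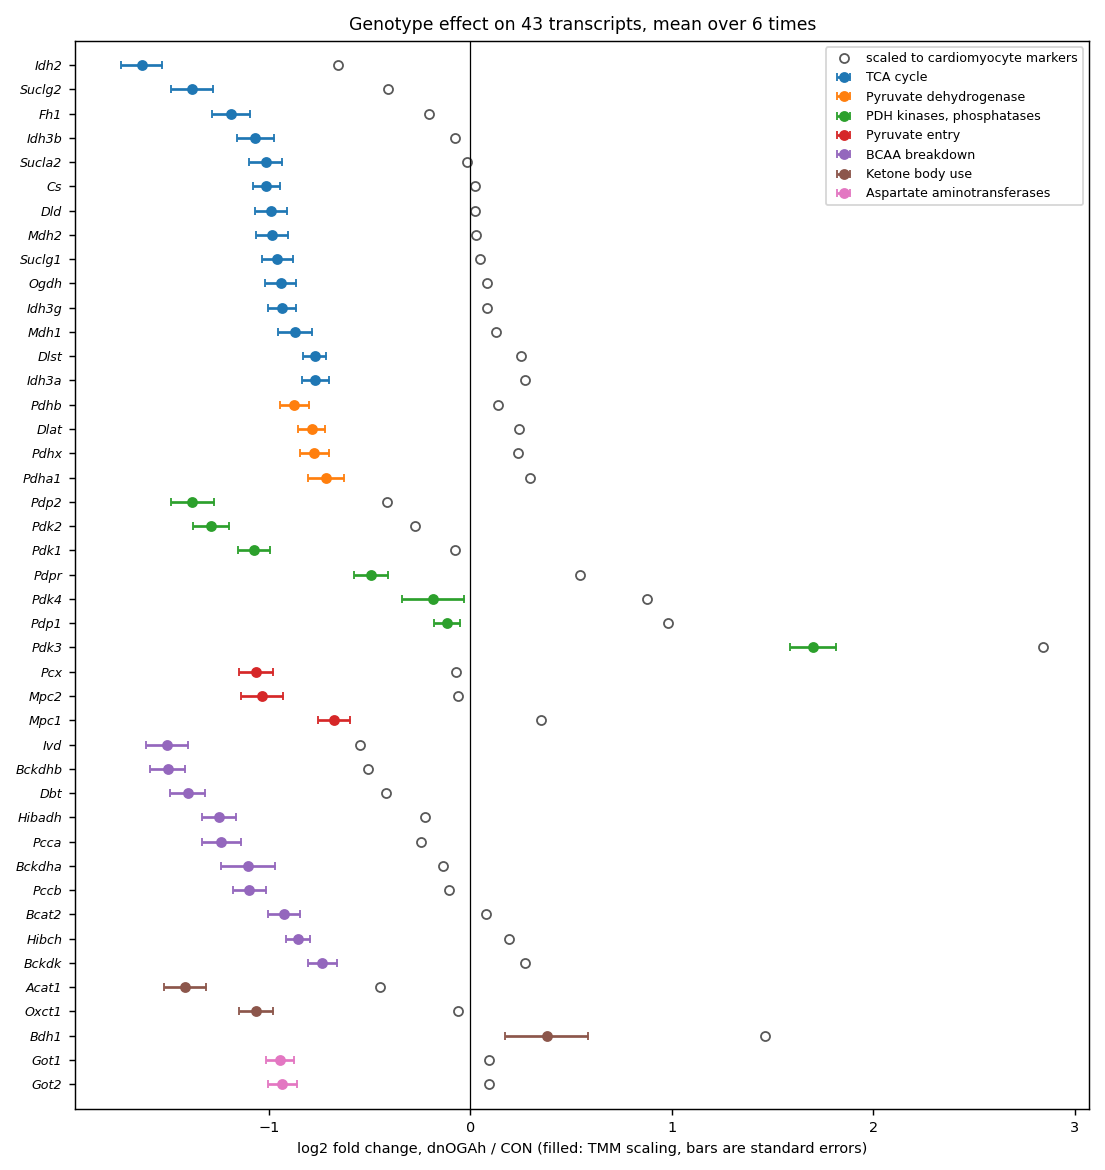
Log2 fold change (dnOGAh over CON, averaged over the 6 times) of each of the 43 members by role, with the standard error, under TMM scaling and under scaling to cardiomyocyte markers. Under TMM 39 members are called lower and Pdk3 higher; under scaling to the markers 12 are lower and 15 higher.

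All 14 members of the TCA cycle fell under TMM scaling (median -0.99), and 3 of them, Idh2, Suclg2 and Fh1, were also lower after scaling to cardiomyocyte markers, while Idh3a, Dlst and Mdh1 were higher there. Idh2, the NADP-dependent isocitrate dehydrogenase of mitochondria, fell most. Its level was 634 CPM at the lowest, 1482 at the median and 1930 at the highest in CON hearts. In dnOGAh hearts the corresponding values were 260, 504 and 1109 CPM. The ranges overlapped, with 27 of 30 dnOGAh hearts below the lowest CON heart, which was ZT4 replicate 4. Without the 3 libraries set aside the lowest CON heart had 1308 CPM and the highest dnOGAh heart 797 CPM, so that the ranges were separate. The log2 fold change of Idh2 was -1.63 (standard error 0.102, adjusted p = 5.23e-21 by edgeR's quasi-likelihood test with Benjamini-Hochberg adjustment), or 32.3% of the CON level.

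The NAD-dependent isocitrate dehydrogenase, which carries the main forward flux of the cycle at this step, fell less. Its subunits Idh3b, Idh3g and Idh3a had log2 fold changes of -1.07, -0.94 and -0.77. Citrate synthase (Cs), the entry enzyme, fell from a median of 1090 CPM to 542 CPM (-1.01). The 2-oxoglutarate dehydrogenase complex fell by similar amounts in each part, at -0.94 for Ogdh, -0.77 for Dlst and -0.99 for Dld, the last being shared with the pyruvate and branched-chain complexes. Of the succinyl-CoA ligase subunits, the GTP-forming Suclg2 fell to -1.38, the ATP-forming Sucla2 to -1.02 and the common Suclg1 to -0.96. Fumarase (Fh1) had a log2 fold change of -1.19, mitochondrial malate dehydrogenase (Mdh2) -0.98 and the cytosolic form (Mdh1) -0.87. Per kilobase of exon, Mdh1 had the highest CON level among all 43 members (a median of 991 CPM per kb), followed by Idh2 (573), Mdh2 (471) and Ogdh (289). In dnOGAh hearts Mdh2 (239 CPM per kb) was above Idh2 (195 CPM per kb), an exchange of places that was not tested.

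The 4 subunits of the pyruvate dehydrogenase complex fell together and by less than the median member under TMM scaling. Log2 fold changes were -0.87 for Pdhb and -0.72 for Pdha1, the subunits of the decarboxylase, -0.79 for Dlat, the acetyltransferase core, and -0.77 for Pdhx, which holds Dld to the core. Relative to the cardiomyocyte markers all 4 were higher, by 0.14 to 0.30, below the median of all genes on that scale (1.12; 86.3% of all genes were higher). The pyruvate carrier of the inner mitochondrial membrane fell in both subunits, to -1.03 for Mpc2 and -0.68 for Mpc1, and pyruvate carboxylase (Pcx), which makes oxaloacetate, fell to -1.06. Scaled to the cardiomyocyte markers, Mpc1 was higher (0.35) and Mpc2 (-0.06) and Pcx (-0.07) did not pass the test.

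The kinases and phosphatases of the complex were the group with the widest spread, from -1.38 to 1.70, and the promoters of the 4 kinases and of Pdp2 are shown because these genes moved in unlike ways. Each line gives the 250 bases before a transcription start in RefSeq, 5′ to 3′ on the gene's strand in GRCm38.p6. Pdk1 and Pdk2 had 2 windows each. For these the window with the most matches to the motifs named below is shown, or the one with the lower start in a tie. Capitals mark an E-box (CACGTG), the site that CLOCK and BMAL1 bind. The windows are chr2:71872974-71873223 (+) for Pdk1, chr11:95041372-95041621 (-) for Pdk2, chrX:93832151-93832400 (-) for Pdk3, chr6:5496279-5496528 (-) for Pdk4 and chr8:104591222-104591471 (+) for Pdp2.
Pdk1: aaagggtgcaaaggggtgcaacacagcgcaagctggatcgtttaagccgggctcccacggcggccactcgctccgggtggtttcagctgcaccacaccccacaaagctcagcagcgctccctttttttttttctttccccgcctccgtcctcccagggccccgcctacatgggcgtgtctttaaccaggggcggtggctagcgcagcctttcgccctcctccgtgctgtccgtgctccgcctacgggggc
Pdk2: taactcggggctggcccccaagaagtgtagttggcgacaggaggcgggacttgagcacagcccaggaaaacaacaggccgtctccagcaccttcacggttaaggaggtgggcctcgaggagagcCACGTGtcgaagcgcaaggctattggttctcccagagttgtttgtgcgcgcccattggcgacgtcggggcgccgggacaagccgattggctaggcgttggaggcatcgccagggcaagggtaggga
Pdk3: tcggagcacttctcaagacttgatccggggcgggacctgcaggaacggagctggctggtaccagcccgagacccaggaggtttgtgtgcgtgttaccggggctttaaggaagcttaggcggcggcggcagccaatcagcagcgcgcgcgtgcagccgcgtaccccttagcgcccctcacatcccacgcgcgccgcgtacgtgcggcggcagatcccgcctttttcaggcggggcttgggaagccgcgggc
Pdk4: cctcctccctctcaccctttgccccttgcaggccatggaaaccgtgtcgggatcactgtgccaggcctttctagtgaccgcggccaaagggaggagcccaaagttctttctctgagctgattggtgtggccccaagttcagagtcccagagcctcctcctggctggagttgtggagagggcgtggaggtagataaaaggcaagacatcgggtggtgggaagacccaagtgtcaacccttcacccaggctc
Pdp2: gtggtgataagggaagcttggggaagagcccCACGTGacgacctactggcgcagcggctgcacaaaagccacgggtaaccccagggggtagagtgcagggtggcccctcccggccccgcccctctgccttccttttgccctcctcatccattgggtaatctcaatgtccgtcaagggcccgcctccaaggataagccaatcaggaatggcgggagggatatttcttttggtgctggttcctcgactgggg

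The Pdk2 window shown held an E-box 126 bases before its start and the Pdp2 window 219 bases before. None of the 5 motifs searched was in the other 3 windows shown. Over the longer table windows, which run 50 bases past the start, 39 of the 43 members matched with 52 windows, and Idh3a, Pdp1, Dbt and Acat1 had none in the table. On either strand the E-box was in 7 of the 52 windows (Ogdh, Pcx, Pdk2, Pdp2 and Pdpr) and in 7.15% of all 32851 windows. The estrogen-related receptor motif AAGGTCA was in 2 member windows (Got1 and Ogdh; 4.72% of all windows), the NRF1 motif GCGCATGC in 3 (Ogdh and Pccb; 2.71%), the ETS motif CCGGAAGT in 1 (Dlst; 3.89%) and the D-box TTATGTAA in 0 (0.938%). No motif contains another, and a match or its absence describes only these windows.

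Pdk3 was the only member that rose. It had 0.365 CPM at the lowest, 3.41 at the median and 6.86 at the highest in CON hearts, and 3.60, 10.9 and 18.0 CPM in dnOGAh hearts. All 30 dnOGAh hearts were above the CON median and 28 were above the highest CON heart, so that the ranges overlapped through 2 hearts, the lowest of which was ZT12 replicate 3. The highest CON value was 6.86 CPM and the lowest dnOGAh value 7.67 CPM when the 3 libraries were left out. The log2 fold change of Pdk3 was 1.70 (standard error 0.115, adjusted p = 1.14e-19 by edgeR's quasi-likelihood test with Benjamini-Hochberg adjustment), a 3.25-fold difference. Pdk3 was also higher under scaling to cardiomyocyte markers (2.84), where 86.3% of all genes were higher, so this adds no separate support. Per kilobase of exon, Pdk3 was the second lowest member in CON hearts (1.33 CPM per kb).

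Pdk2 and Pdk1 went the other way. Pdk2, the kinase with the highest level per kilobase in both genotypes, had 202 to 665 CPM (median 576) in CON and 128 to 370 CPM (median 235) in dnOGAh hearts. Its log2 fold change was -1.29 (standard error 0.090, adjusted p = 4.98e-19 by the same edgeR test). Pdk1 had 64.6 to 132 CPM (median 116) in CON and 29.6 to 94.0 CPM (median 54.5) in dnOGAh hearts, with 24 of 30 dnOGAh hearts below the CON range. Without the 3 libraries the lowest CON value of Pdk1 was 103 CPM and all 28 dnOGAh hearts were below it, whereas for Pdk2 26 of 28 were below a lowest CON value of 323 CPM. For Pdk1 the log2 fold change was -1.07 (standard error 0.0792, adjusted p = 4.14e-18 by the same edgeR test). Pdk2 was lower under scaling to cardiomyocyte markers as well (-0.28), whereas Pdk1 did not pass there (-0.075).

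Pdk4, the kinase induced by fasting and fatty acids, had a broad range in both genotypes. It ran from 75.5 CPM through a median of 195 to 956 CPM in CON hearts, and from 79.9 through 183 to 337 CPM in dnOGAh hearts. The groups overlapped almost fully, with 17 of 30 dnOGAh hearts below the CON median. The log2 fold change of Pdk4 was -0.19 (standard error 0.153, adjusted p = 0.277 by edgeR's quasi-likelihood test with Benjamini-Hochberg adjustment), and 0.88 under scaling to cardiomyocyte markers, where Pdk4 was called higher. Per kilobase, the medians of Pdk2, Pdk4, Pdk1 and Pdk3 were 182, 55.4, 14.9 and 1.33 CPM per kb in CON hearts. In dnOGAh hearts they were 74.3, 52.1, 7.00 and 4.26 CPM per kb in the same order.

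**Figure D3:**
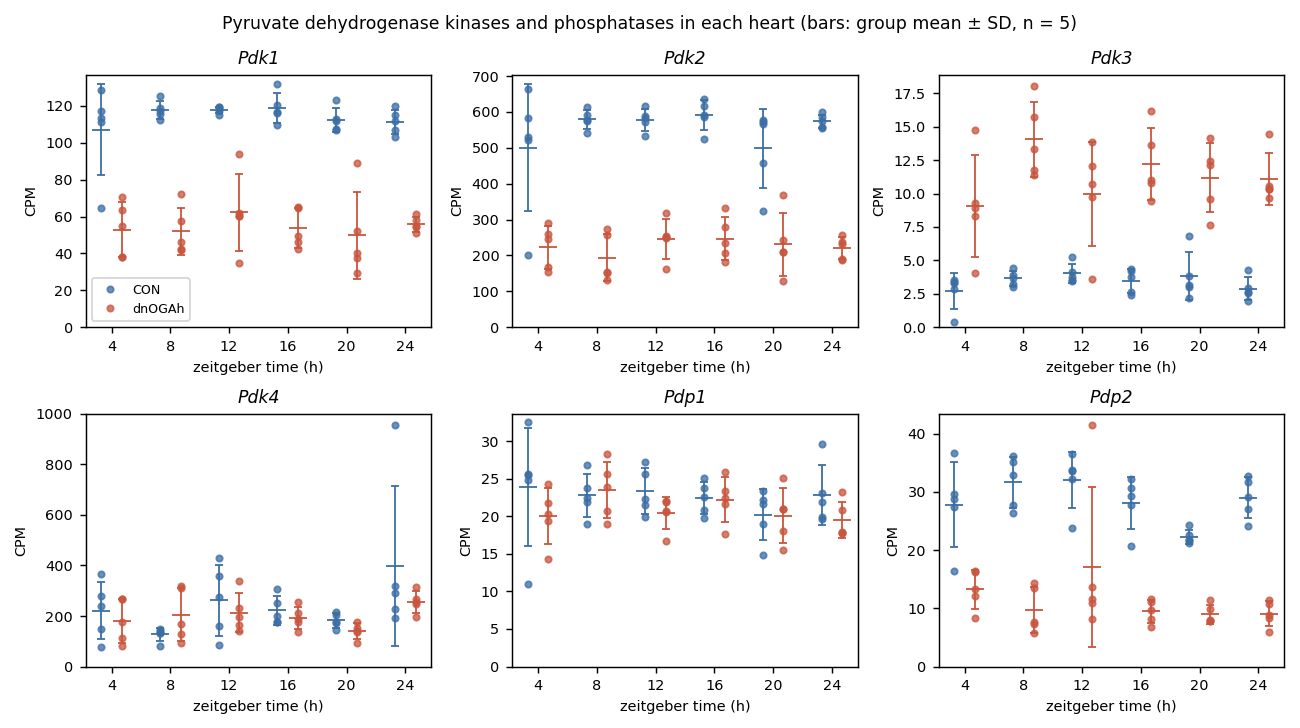
TMM-scaled CPM (linear axis) of the 4 kinases and of the phosphatases Pdp1 and Pdp2 in single hearts by zeitgeber time (h), with the mean ± SD of the 5 hearts per genotype and time. Pdk3 is higher in dnOGAh hearts at each time, Pdk1, Pdk2 and Pdp2 are lower, and Pdk4 and Pdp1 overlap.

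Among the phosphatases, Pdp2 and Pdp1 parted. Pdp2 had 16.4 to 36.7 CPM (median 28.9) in CON and 5.74 to 41.5 CPM (median 10.3) in dnOGAh hearts. The value of 41.5 was that of dnOGAh ZT12 replicate 3, and the other 29 dnOGAh hearts were all below the CON range. The log2 fold change of Pdp2 was -1.38 (standard error 0.106, adjusted p = 3.13e-17 by the same edgeR test), and it was lower under scaling to cardiomyocyte markers too (-0.41). Pdp1, the calcium-stimulated phosphatase of muscle, had 10.9, 22.4 and 32.6 CPM (lowest, median, highest) in CON hearts. In dnOGAh hearts Pdp1 had 14.3, 20.8 and 28.3 CPM, all within the CON range. Its log2 fold change was -0.11 (standard error 0.0641, adjusted p = 0.105 by the same edgeR test). Pdp1 passed the test without CON ZT4 replicate 4 (-0.14, adjusted p = 0.0236 by the same edgeR test), and under scaling to cardiomyocyte markers it was higher (0.98). Pdpr, the regulatory subunit, had a log2 fold change of -0.49 under TMM and was higher (0.55) under scaling to the markers.

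All 10 members of BCAA breakdown fell under TMM scaling (median -1.17), and 6 of them, Bckdhb, Ivd, Dbt, Pcca, Hibadh and Pccb, were also lower relative to the cardiomyocyte markers, while Bckdk and Hibch were higher there. Ivd, isovaleryl-CoA dehydrogenase of leucine breakdown, had 205, 419 and 476 CPM (lowest, median, highest) in CON hearts. In dnOGAh hearts Ivd had 66.5, 150 and 335 CPM, and 27 of 30 hearts were below the lowest CON heart. The lowest CON value was 359 CPM and the highest dnOGAh value 224 CPM without the 3 libraries. The log2 fold change of Ivd was -1.50 (standard error 0.105, adjusted p = 6.04e-19 by edgeR's quasi-likelihood test with Benjamini-Hochberg adjustment). Bckdhb, the beta subunit of the branched-chain ketoacid dehydrogenase, had 30.7, 69.1 and 84.9 CPM in CON hearts and 13.4, 24.2 and 50.6 CPM in dnOGAh hearts. Here 26 of 30 dnOGAh hearts were below the CON range, and without the 3 libraries all 28 were (CON from 59.7 CPM, dnOGAh up to 38.7 CPM). For Bckdhb the log2 fold change was -1.50 (standard error 0.0877, adjusted p = 4.18e-22 by the same edgeR test).

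The other parts of that complex also fell. Dbt, its acyltransferase core, had a log2 fold change of -1.40 with 28 of 30 dnOGAh hearts below the CON range (28 of 28 without the 3 libraries), and Bckdha, the alpha subunit, of -1.10 (standard error 0.135). Bckdha had the widest error of the 10, and it was lowest in replicate 2 at ZT20 in each genotype (9.59 CPM in CON, 5.02 CPM in dnOGAh). Bckdk, the kinase that inactivates the complex, had the smallest fall of the 10 (-0.73). Bcat2, the mitochondrial transaminase that starts BCAA breakdown, had a log2 fold change of -0.92. In valine breakdown Hibadh (-1.25) and Hibch (-0.85) fell, and so did Pcca (-1.24) and Pccb (-1.10), the subunits of propionyl-CoA carboxylase.

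Of the 3 ketone body enzymes, Oxct1 and Acat1 fell and Bdh1 did not pass the test. Acat1, the mitochondrial thiolase that splits acetoacetyl-CoA and also acts in isoleucine breakdown, had 250.4, 653 and 739 CPM (lowest, median, highest) in CON and 123, 247 and 552 CPM in dnOGAh hearts. Without the 3 libraries the lowest CON value was 619 CPM and the highest dnOGAh value 382 CPM. For Acat1 the log2 fold change was -1.42 (standard error 0.103, adjusted p = 2.27e-18 by edgeR's quasi-likelihood test with Benjamini-Hochberg adjustment), and Acat1 was lower under both scalings. Oxct1, which hands CoA from succinyl-CoA to acetoacetate, had a log2 fold change of -1.06 under TMM and of -0.06 under scaling to the markers, where it did not pass.

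Bdh1, which oxidizes 3-hydroxybutyrate to acetoacetate, had the highest coefficient of variation of CPM among the members in both genotypes. It had 9.73, 22.8 and 93.4 CPM (lowest, median, highest) in CON hearts and 10.7, 32.5 and 142 CPM in dnOGAh hearts, and 26 of 30 dnOGAh hearts were above the CON median within a shared range. The log2 fold change of Bdh1 was 0.38 (standard error 0.206, adjusted p = 0.0976 by the same edgeR test). The call turned on the tool and on the hearts: limma-voom gave 0.55 (adjusted p = 0.00577), and edgeR without replicate 3 of every group gave 0.66 (adjusted p = 0.00611). The aspartate aminotransferases, which carry the malate-aspartate shuttle with the malate dehydrogenases, fell alike at -0.94 for the cytosolic Got1 and -0.93 for the mitochondrial Got2, and neither passed under scaling to the markers (0.092 and 0.095).

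Genes of the same pathways that are not members were counted in the same way. Of 41 such genes 40 were tested, of which 34 were lower (31.9% of all genes), 4 higher (38.8%) and 2 (Slc25a44 and Slc16a7) did not pass, with a median log2 fold change of -0.83 under TMM; relative to the cardiomyocyte markers 14 were lower (3.63%) and 22 higher (86.3%). Sdha and Sdhb, subunits of succinate dehydrogenase in the TCA cycle, fell with the members, at -1.05 and -1.14. The lowest values were those of Ogdhl, a tissue-restricted form of 2-oxoglutarate dehydrogenase (-2.28), and Gpt, alanine aminotransferase (-1.78). In BCAA breakdown Mccc2 (-1.58), the mitochondrial phosphatase Ppm1k that activates the branched-chain complex (-1.56) and Aldh6a1 (-1.53) fell. Bcat1, the cytosolic BCAA transaminase, rose by 2.63 on the log2 scale, Bdh2, a cytosolic dehydrogenase, by 1.16, Me2, a mitochondrial malic enzyme, by 0.91 and Pck2, mitochondrial phosphoenolpyruvate carboxykinase, by 0.42. The 4 that rose were also higher relative to the markers, where 86.3% of all genes were higher, so this adds no separate support.

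**Figure D4:**
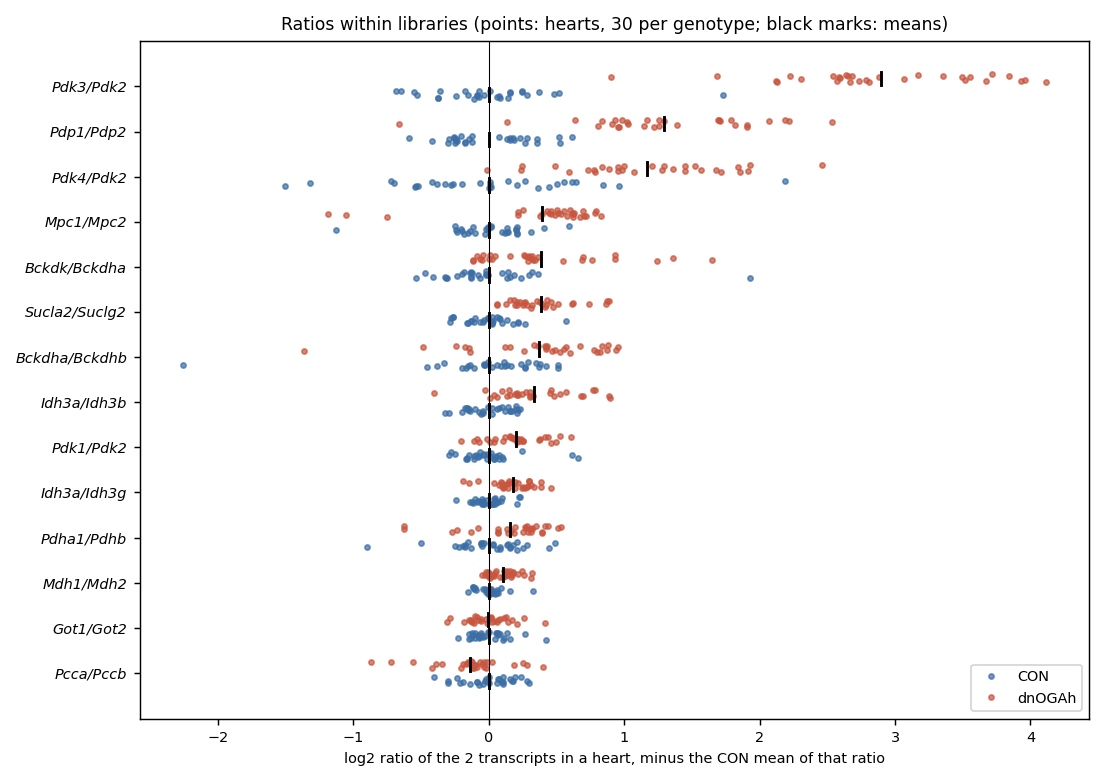
Log2 ratio of 2 members' CPM within each library (pseudocount 0.5 CPM) in CON and dnOGAh hearts for 14 pairs, with the mean of 30 hearts per genotype. The Pdk3/Pdk2 ratio is higher in all 30 dnOGAh hearts than the CON mean, and the Got1/Got2 ratio has the same mean in both genotypes to within 0.01.

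A ratio of 2 members was taken within each library, where the scaling factor cancels except through the pseudocount of 0.5 CPM, which weighs on low members such as Pdk3. For 14 pairs of paralogs or subunits, a two-sided permutation test of genotype within time (100000 resamples, adjusted over the 14 pairs) was past 0.05 for 13. Pairs of other genes were not tested. By the genotype effect 31.9% of all genes were lower and 38.8% higher, so a shift need not be particular to these pairs. A ratio does not cancel a difference in the mix of cell types, and the part of that mix was not tested. The mean log2 ratio of Pdk3 to Pdk2 was -7.19 ± 0.45 (SD, n = 30) in CON and -4.29 ± 0.73 (SD, n = 30) in dnOGAh hearts. This difference of 2.90 had a permutation p of 1e-05, the smallest these permutations can give (adjusted 2.33e-05), and the highest CON heart (-5.46) overlapped the lowest dnOGAh heart (-6.28). With a pseudocount of 5 CPM the difference was 2.22. The ratio of Pdk4 to Pdk2 went from -1.42 ± 0.71 to -0.25 ± 0.57 (SD, n = 30 each), a difference of 1.17 seen in 29 of 30 dnOGAh hearts relative to the CON mean (permutation p = 1e-05, adjusted 2.33e-05). The ratio of Pdk1 to Pdk2 differed by 0.20 (permutation p adjusted to 0.00056). The phosphatase ratio Pdp1 to Pdp2 went from -0.33 ± 0.31 to 0.97 ± 0.65 (SD, n = 30 each), a difference of 1.29 with a permutation p of 1e-05 (adjusted 2.33e-05).

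Subunits of single complexes also shifted against each other, by smaller amounts. Sucla2 against Suclg2, the ATP-forming against the GTP-forming subunit, was 0.39 higher on the log2 scale in dnOGAh hearts, in 30 of 30 hearts relative to the CON mean. Mpc1 against Mpc2 and Bckdk against Bckdha each differed by 0.39 and Bckdha against Bckdhb by 0.37. In ZT20 replicate 2 of CON and of dnOGAh, Mpc1/Mpc2 was low at -4.52 and -4.45, and Bckdha/Bckdhb at -3.06 and -2.17. Idh3a rose by 0.33 against Idh3b and by 0.18 against Idh3g, and Mdh1 by 0.10 against Mdh2. Pdha1 against Pdhb (0.16, adjusted permutation p = 0.0165) and Pcca against Pccb (-0.14, adjusted permutation p = 0.0203) were the least secure of the 13: each lost the call with replicate 3 of every group left out, Pdha1/Pdhb also without replicate 2, and Pcca/Pccb also without replicate 4 or with a pseudocount of 5 CPM. Got1 against Got2 differed by -0.003 (adjusted permutation p = 0.945), against a CON SD of 0.14.

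The difference between genotypes was present at every time of day. From ZT4 to ZT24, the numbers of members that were lower under TMM scaling were 38, 39, 38, 39, 39 and 38 of 43 (against 14.1%, 21.0%, 12.9%, 17.6%, 16.3% and 18.8% of all genes), with 5 hearts per group. Pdk3 was higher at each time (18.5%, 24.8%, 18.8%, 23.1%, 23.6% and 23.6% of all genes were), by 1.32 to 1.94 on the log2 scale. Pdpr was the member that dropped out, at ZT4, ZT12 and ZT24 (-0.43, -0.38 and -0.23). Bdh1 was higher at ZT20 alone (1.34, adjusted p = 0.0329 by edgeR's quasi-likelihood test with Benjamini-Hochberg adjustment), where replicate 5 had 142 CPM and the other 4 hearts 20.7 to 48.04 CPM. Summed skeletal muscle markers, in CPM without TMM scaling, were 7728 in that heart, against at most 1317 in any other heart, and their part was not tested. Without it, a choice made after seeing the data, Bdh1 did not pass at ZT20 (0.62, adjusted p = 0.339 by the same edgeR test), nor without replicate 1 or replicate 4 of every group (adjusted p = 0.0903 and 0.0947). Pdk4 did not pass at any time, with values from -0.63 at ZT24 to 0.69 at ZT8. Under scaling to cardiomyocyte markers, 1, 6, 6, 8, 12 and 7 members were lower at the 6 times (0.993%, 1.69%, 1.45%, 1.79%, 2.23% and 1.88% of all genes).

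The median member difference was -1.16 at ZT8 and between -1.0 and -0.85 at the other times, and 33 of the 43 members had their lowest fold change at ZT8. ZT8 was also the time with the most genes called over the whole table, 21.0% lower and 24.8% higher. The members share the same hearts, and the share of all genes with their lowest difference at ZT8 is not given. That the difference itself varied with time could not be shown: in edgeR's test of the genotype by time interaction 0 members passed (0% of all genes) and 0 had an unadjusted p under 0.05 (2.51% of all genes), and DESeq2 (0.0277% of all genes) and limma-voom (0.00552%) called 0 members as well. The lowest unadjusted interaction p among the members was 0.113, for Dbt.

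A time-of-day pattern was called for few members, and the calls turned on the tool. By edgeR's test over the 6 times, 0 members passed in CON hearts (1.09% of all genes) and 0 in dnOGAh hearts (0.315%). At an unadjusted p under 0.05 there was 1 member in CON hearts (Pdk4; 10.7% of all genes) and there were 2 in dnOGAh hearts (Pdp2 and Dbt; 8.11%). DESeq2 called Pdk4 in CON hearts (adjusted p = 0.0305; 3.52% of all genes) and Pdp2 in dnOGAh hearts (adjusted p = 0.0329; 1.07%), and limma-voom 0 members in each (0.673% and 0.276%). Pdp2 and Dbt both had their highest dnOGAh value in ZT12 replicate 3, the heart with Oga in the CON range (41.5 and 80.5 CPM). Their time results are not given without that heart. By JTK_CYCLE, 0 members oscillated with a period of 24 h in CON hearts (q under 0.05; 2.09% of all genes) and 0 in dnOGAh hearts (0.171%). At an unadjusted p under 0.05 it gave 4 members in CON hearts, Bckdk, Pdp2, Dbt and Bcat2 (11.5% of all genes), and 0 in dnOGAh hearts (3.67%).

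The highest mean level of Pdk4 was at ZT24 in both genotypes, 397 ± 317 CPM (SD, n = 5) in CON and 256 ± 43.4 CPM (SD, n = 5) in dnOGAh hearts. The CON mean at ZT24 rests on replicate 3 (956 CPM), the other 4 hearts having 191 to 319 CPM. The lowest CON mean of Pdk4 was at ZT8, 127 ± 26.8 CPM (SD, n = 5). Its cosinor log2 amplitude in CON hearts was 0.32 (standard error 0.19), next to 0.33 for Pdk3 and 0.27 for Bckdha, and the median amplitude over the members was 0.11 in CON and 0.10 in dnOGAh hearts. When the cosine and sine terms of 24 h were compared between genotypes by edgeR, 0 members passed (0.0166% of all genes) and 0 had an unadjusted p under 0.05 (3.31%), the lowest being 0.288. DESeq2 (0.0167% of all genes) and limma-voom (0.0110%) called 0 members as well.

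Among hearts of one genotype, the members varied together. After the mean of each time was taken out, a member's log2 CPM correlated with the mean of the other members with a median Pearson r of 0.88 over the 30 CON hearts and 0.90 over the 30 dnOGAh hearts. These points share library, depth and scaling, and are given as a description. Without CON ZT4 replicate 4 the CON median fell to 0.38, whereas in dnOGAh hearts it was 0.92 without ZT4 replicate 4 and ZT12 replicate 3. In dnOGAh hearts without these libraries Pdk3 ran against the other members (r = -0.80), as did Pdp1 (r = -0.56), and Bdh1 was near 0 (0.06). The 3 members other than Pdk3 that did not fall in the genotype comparison, Pdk4, Pdp1 and Bdh1, were among the 4 with the lowest r over all 30 dnOGAh hearts, where Pdk3 had the lowest (-0.61).

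**Figure D5:**
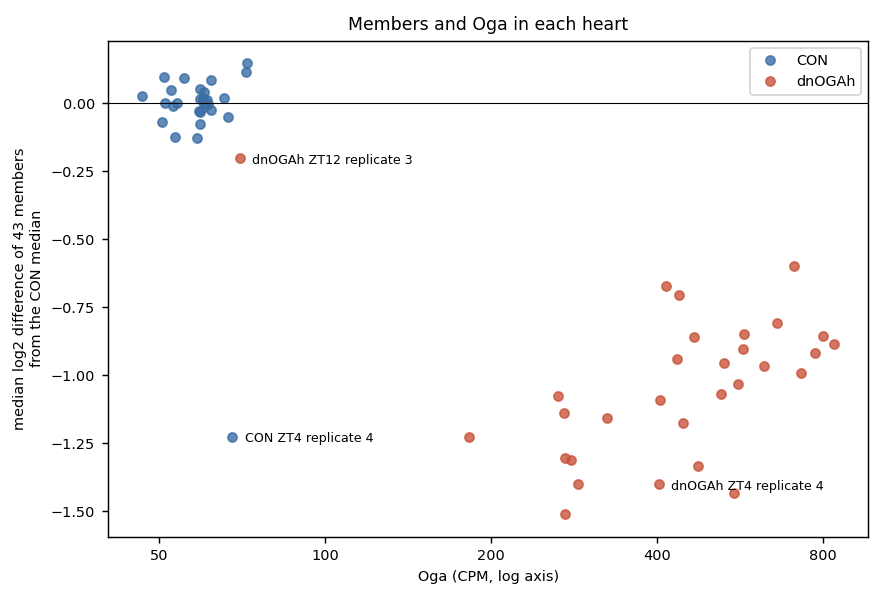
Median log2 difference of the 43 members from their CON medians in each heart (TMM-scaled CPM) against the Oga level of that heart (CPM, log axis), by genotype. The dnOGAh hearts lie between -1.51 and -0.20, with ZT12 replicate 3 at 70.0 Oga CPM beside the CON hearts.

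Hearts with more Oga RNA within the dnOGAh group were compared next, by the slope of each transcript on log2 Oga CPM with the 6 times as groups. Over all 30 dnOGAh hearts 0 members passed edgeR's test (2.46% of all genes had a negative and 2.24% a positive slope past the threshold), 3 had an unadjusted p under 0.05 (21.6% of all genes), and DESeq2 (5.41% and 3.40%) and limma-voom (2.01% and 2.27%) called 0. The median slope of the members was 0.00, and 23 of 43 were positive. The heart ZT12 replicate 3, with the lowest Oga and the smallest fall of the members, decided this value. Without it, a choice made after seeing the data, 28 members passed, all with a positive slope (8.48% of all genes; 7.25% had a negative one), 40 of 43 slopes were positive and the median was 0.28 against -0.01 over all genes. The steepest were Bckdha (0.81), Suclg2 (0.64), Acat1 (0.61) and Ivd (0.60), in log2 units per log2 unit of Oga, and Pdk3 (-0.27), Pdp1 (-0.15) and Bdh1 (-0.03) had negative slopes that did not pass. The cardiomyocyte markers had a median slope of 0.32 without that heart, with 5 of 12 past the threshold. Without all 3 libraries 33 members passed with a positive (12.3% of all genes) and 1 with a negative slope (11.6%). Scaled to these markers, 17 members passed over all 30 hearts, all with a positive slope (26.6% of all genes; 0.0883% had a negative one), and without the heart ZT12 replicate 3 0 members passed (1 gene did, 0.00537% of all genes). The Oga level was scaled to the markers too, so the factor of a heart enters both Oga and the transcript. Without dnOGAh ZT4 replicate 4, 1 member passed, Bcat2, with a negative slope (-0.23; 6.63% of all genes were called with a negative and 4.46% with a positive slope).

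Scaling to the 12 cardiomyocyte markers showed how the members stood against cardiomyocyte contractile and calcium-handling transcripts rather than against all RNA. It moved the median of all genes from 0.06 to 1.12, called 86.3% of all genes higher and 3.63% lower, and brought the median of the members to 0.027. The members' median minus that of all genes was -1.09, against -1.04 under TMM. A change of scaling moves all genes of a library by the same factor, so this gap could change little. For the same reason, a member lower on this scale was nearly bound to be lower under TMM. Under it 12 members were lower, 15 higher and 16 not past the test, and 22 members changed sign. The 12 lower members, all called lower under TMM too, were Idh2 (-0.66), Ivd (-0.55), Bckdhb (-0.51), Acat1 (-0.45), Dbt (-0.42), Pdp2 (-0.41), Suclg2 (-0.41), Pdk2 (-0.28), Pcca (-0.24), Hibadh (-0.22), Fh1 (-0.21) and Pccb (-0.11). Pdk3 (2.84), Bdh1 (1.46), Pdp1 (0.98), Pdk4 (0.88) and Pdpr (0.55) were the highest. With 10 markers, or with the 12 weighted equally, 11 members were lower in each case (Pccb did not pass; 3.26% and 3.25% of all genes), and 19 and 20 were higher (87.2% and 87.4%). The markers themselves differed in their fall, from -1.66 for Pln to -0.19 for Mybpc3, so that the place of 0 on this scale depends on the markers chosen.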

How the data were processed

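Polyadenylated RNA of 60 hearts was sequenced as paired-end reads from a directional library kit. The authors trimmed reads with Trim Galore 0.6.7, aligned them to GRCm39 with STAR 2.7.10b and deposited raw counts per Ensembl gene made with HTSeq 2.0.2; the annotation release and strand setting are not given in the sources used here. The 5 summary rows, which hold 11.0% to 39.4% of all alignments as not unique, were left out of library sizes, so genes with near-identical copies may be undercounted. Symbols came from a GRCm38 table (52093 of 53700 rows named; Oga is listed as Mgea5), so no GRCm39 coordinates are given. Promoter windows are RefSeq's for GRCm38.p6, and exon lengths are unions over GENCODE transcripts of GRCm38.

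Tests on the counts were run with edgeR 4.0.16 under R 4.3.3 (filterByExpr with a minimum count of 10, TMM, robust quasi-likelihood fit of 12 genotype by time groups, Benjamini-Hochberg adjustment over all 18119 genes). Alternatives used limma 3.58.1, DESeq2 1.42.0, DESeq2 size factors, other filters, scaling without mitochondrial transcripts or to cardiomyocyte markers, a replicate block, and libraries left out. Oscillation was tested by a reimplemented JTK_CYCLE (6 lags of 2 h), and amplitudes came from a least-squares cosinor on log2 CPM (prior count 2). Code was tested on simulated data with known changes. Each heart was taken as a separate animal. Full values were given for the 4 highest and 4 lowest members by fold change, members that rose or did not pass, and Pdk4; Pdk1, Pdk2 and Pdp2 and the members and genes named beyond these were chosen after their values were seen. The members and gene lists were chosen with earlier results of these data known.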

Additional observations from a re-analysis of the deposited data

Results flagged for a closer look

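In the 12 groups of 5 hearts, the 11 members given with full values were searched for a heart whose gap to its nearest neighbour took up most of the group's range (Dixon's 95% criterion), and 13 of 132 groups held one. For normally distributed values chance flags about 1 in 20 groups, but the members share the same libraries, so the flags are not independent of each other. Values are TMM-scaled CPM. In CON ZT4 replicate 4, the library with 77.6% mitochondrial counts, Ivd had 205 CPM (the other 4 hearts 379 to 425), Bckdhb 30.7 (63.8 to 75.4), Acat1 250.4 (633 to 669), Pdk1 64.6 (112 to 129) and Pdk3 0.365 (2.89 to 3.56). Pdk4 was low in CON ZT8 replicate 5, at 80.4 CPM (others 132 to 148), and high in CON ZT24 replicate 3, at 956 CPM (others 191 to 319). Bdh1 was high in CON ZT4 replicate 2, at 73.4 CPM (others 14.2 to 26.8), in CON ZT12 replicate 3, at 93.4 CPM (others 9.73 to 27.2), and in dnOGAh ZT20 replicate 5, at 142 CPM (others 20.7 to 48.04). Pdp1 was low in dnOGAh ZT12 replicate 4, at 16.8 CPM (others 20.6 to 22.1), and Pdk3 was high in dnOGAh ZT24 replicate 5, at 14.5 CPM (others 9.67 to 10.6). Pdp2 was high in dnOGAh ZT12 replicate 3, the heart with Oga in the CON range, at 41.5 CPM (others 8.18 to 13.6). The causes were not tested.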

How the results depend on the processing

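The 39 falls kept their direction and call under every alternative of count model, filter, normalization, left-out library and replicate block run here, except scaling to cardiomyocyte markers. Under that scaling 12 members were lower and 15 higher, the median was 0.027, and 1, 6, 6, 8, 12 and 7 members were lower from ZT4 to ZT24. It reversed Cs (0.023), Idh3a (0.27), Idh3g (0.082), Ogdh (0.081), Dlst (0.25), Dld (0.021), Suclg1 (0.050), Mdh1 (0.13), Mdh2 (0.027), Pdha1 (0.30), Pdhb (0.14), Dlat (0.24), Pdhx (0.24), Pdk4 (0.88), Pdp1 (0.98), Pdpr (0.55), Mpc1 (0.35), Bcat2 (0.080), Bckdk (0.27), Hibch (0.19), Got1 (0.092) and Got2 (0.095), and with 10 or equally weighted markers Sucla2 as well (0.023 and 0.028). Members higher numbered 2 with limma-voom, Bdh1 being added, and 1 to 2 with a replicate number left out of every group. Pdp1 passed when mitochondrial transcripts were left out of the scaling (-0.14, adjusted p = 0.0459 by edgeR's quasi-likelihood test). Leaving out replicate numbers gave 39 falls each time, with a median of -1.01 to -0.96. There were then 30 to 38 falls at ZT12 and 34 to 39 at ZT4, with 11 to 13 ratio pairs past the test. Shares over all genes are not given for counts with a replicate number left out. The Got1/Got2 difference ranged from -0.0083 to 0.00023 across these fits. DESeq2 called 1 member for time in each genotype.

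For the Oga slope, 34 members passed without the 3 libraries (33 with a positive slope, 12.3% of all genes). There were 28 without dnOGAh ZT12 replicate 3 (all positive, 8.48%) and 1 without dnOGAh ZT4 replicate 4 (negative, 6.63%). Scaled to cardiomyocyte markers there were 17 (all positive, 26.6%). In fits without a replicate number 0 to 22 members passed, and the share over all genes is not given for those fits. The slope of Bcat2 turned positive without the 3 libraries (0.085) or ZT12 replicate 3 (0.096). With a replicate number left out, slopes ranged from -0.32 to 0.082 for Bcat2, -0.027 to 0.61 for Suclg2, -0.10 to 0.59 for Acat1 and -0.11 to 0.56 for Ivd, turning positive for Bcat2 without replicate 3 and negative for the other members without replicate 5. The median correlation in CON hearts fell to 0.38 without the 3 libraries. The causes were not tested, and the counting depth of Pdk3, Pdpr and Pdp1 limits their single values.

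Outside ZT4, correlations gave little sign that replicate numbers paired the hearts, and shared handling of same-numbered hearts was not tested. The 30 same-numbered pairs of the genotypes had correlations of -0.10 to 0.55 (median 0.03). The 5 over 0.1 were the 5 pairs of ZT4, where replicate 4 of both genotypes had the high mitochondrial share, and the highest was replicate 4. Deviations were taken from group means, which replicate 4 shifts alike in both genotypes, so the ZT4 correlations cannot show pairing. With the replicate block 39 members fell and 1 rose, 13 ratio pairs passed, and no call of a member changed. The share over all genes is not given for the block.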
